A study of Mus musculus with 20 samples.

Results

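Mcam encodes the melanoma cell adhesion molecule, also called MCAM, CD146 or MUC18, and was taken as the single row named Mcam (ENSMUSG00000032135) of a deposited count table with 25719 gene rows. It was chosen because earlier work on these data showed large differences between groups, so its levels are given as a description without a test. The study asked how loss of glucocorticoid synthesis in the skin changes keratinocytes, the main cells of the epidermis. Cyp11b1, the gene of the steroid hydroxylase for the final step to corticosterone, was deleted with Cre recombinase driven by the K14 promoter. RNA of 20 mice was sequenced in bulk from keratinocytes of ear and dorsal skin after enrichment by flow cytometry. The groups had 5 mice each.

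The knockout groups, labelled cKO, were K14-CreERTam x Cyp11b1 L2/L2 mice, and the control groups, labelled fl_ctrl, were Cyp11b1 L2/L2 littermates without Cre. All 4 groups carried the floxed alleles and received tamoxifen on 5 days, with cells taken on day 6. In the local groups tamoxifen was put on the skin, with 20 µl on the ear and 100 µl on the shaved back. In the systemic groups 100 µl at 10 mg/ml was injected into the peritoneum each day. There was no group without tamoxifen and none with Cre and intact Cyp11b1, so Cre, its activation and the loss of Cyp11b1 cannot be told apart in a comparison of cKO with control. Strain and age are not given in the labels used here.

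MCAM is a cell-surface glycoprotein of the immunoglobulin superfamily with an extracellular part, a single membrane span and a short cytoplasmic tail. It binds other cells and matrix proteins such as the laminin that contains Lama4, and its tail meets actin-linking proteins. It is best known from vascular endothelium, pericytes, smooth muscle and melanoma, and it is used as a marker of blood vessels in skin.

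In GENCODE M21 the gene lies on the plus strand of chromosome 9 at chr9:44134469-44142727 in the mouse build GRCm38, one of the builds named in the submitters' processing notes. The annotation holds 6 transcripts, of which 4 are protein coding. The longest, Mcam-201, has 16 exons with 2989 exonic bases, of which 1944 are coding. The antisense gene Gm10687 overlaps the first 17 bases of Mcam on the other strand and was not analysed here.

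Proteins reported to act on the MCAM promoter include CREB, SP and AP-2 factors, and the genes for several of them are described further on. The RefSeq window of 250 bases before and 50 bases after the Mcam start site (GRCm38.p6) was therefore searched on both strands. The letters TGACGTCA, the cAMP response element that CREB binds, occurred 1 time in this window and in 1.79% of 32851 RefSeq promoters of the same length. The stretch that holds them is shown because it is the rarest of the motifs present, with the element in capitals, at chr9:44134619-44134646 on the plus strand.

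Mcam: cccgccccccTGACGTCAgcccccgaca

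The GC box GGGCGG, which SP factors bind, occurred 5 times in the window and at least 1 time in 35.7% of all promoters. The AP-2 letters GCCNNNGGC and the E-box CACCTG each occurred 1 time, against 16.6% and 20.2% of promoters with a match. No full palindromic glucocorticoid response element and no full palindromic estrogen response element was in the window, and 0.00913% and 0.07% of promoters hold one. Mcam-201 starts 96 bases before the RefSeq start site, so part of the window lies in its first exon. The 250 bases before the start site had 73.6% G and C, against a median of 52.4% over all promoters.

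Library totals ran from 11.59 to 50.08 M counts, with 14536 to 18750 genes detected, and log2 CPM of libraries of the same group correlated at r from 0.927 to 0.984 across genes. Levels below are CPM, that is, counts scaled to library size with TMM factors, unless another scale is named. At these depths 3 counts corresponded to 0.0729 to 0.264 CPM. Satellite-like transcripts, a set of predicted genes taken from the earlier work, reached 79.4 CPM or more in all 5 systemic controls and 37290 CPM in systemic cKO 2, and at most 42.45 CPM elsewhere. Cyp11b1 had 9, 7, 2 and 4 reads in all in local controls, local cKO, systemic controls and systemic cKO, too few to check a genotype.

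In 3 systemic libraries, 2 other genes went against the genotype label. Esr1 encodes the estrogen receptor alpha, part of which is fused to Cre in transgenes of the CreERTam kind, and reads from the gene and from such a transgene cannot be told apart in gene counts. Esr1 was at 34.13 to 74.61 CPM in the local cKO libraries and at 1.41 to 2.89 CPM in the local controls. In the libraries labelled systemic cKO 4 and 5 it was at 1.86 and 2.39 CPM, and in the library labelled systemic control 6 at 43.74 CPM. The other systemic controls had 1.35 to 4.41 CPM and the other systemic cKO libraries 50.82 to 70.89 CPM. Gypc, which encodes the red-cell membrane protein glycophorin C, gave the same division, with 0.293 and 0.316 CPM in the libraries labelled systemic cKO 4 and 5 and 16.28 CPM in that labelled systemic control 6. No library was moved to another group, and the main results on Mcam, the genes that follow it and its lists are also given without these 3 libraries, an alternative chosen after seeing the data.

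Mcam was low in the keratinocytes of every control mouse and higher in local cKO than in any other library. The 5 local controls had 1.06, 1.10, 1.37, 1.43 and 1.07 CPM from 20 to 29 counts each. The 5 local cKO libraries had 13.24, 16.6, 24.07, 16.62 and 27.97 CPM from 288 to 651 counts each. These groups did not overlap, and the lowest local cKO library stood far above the highest local control. Group means were 1.21 ± 0.18 CPM in local controls and 19.7 ± 6.09 CPM in local cKO (SD, n = 5 each). On the log2 scale the difference was 4.03 (SE 0.48), a 16.4-fold higher level.

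After injection the systemic controls had 0.957, 2.75, 1.91, 2.43 and 3.18 CPM, the last being the library labelled systemic control 6. The systemic cKO libraries, numbered 2, 4, 5, 6 and 7, had 10.39, 1.49, 1.86, 10.94 and 8.63 CPM. Systemic cKO thus held 3 libraries above every control and 2 libraries, numbers 4 and 5, inside the control range. Those 2 were the deepest of the systemic libraries, with exact 95% counting intervals of 1.14 to 1.92 and 1.40 to 2.44 CPM against 7.25 to 10.2 CPM in systemic cKO 7. Such intervals cover counting error only. The mean was 2.25 ± 0.86 CPM over systemic controls and 6.66 ± 4.63 CPM over the cKO libraries (SD, n = 5 each), a log2 difference of 1.49 (SE 0.44) or 2.81-fold.

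**Figure D1:**
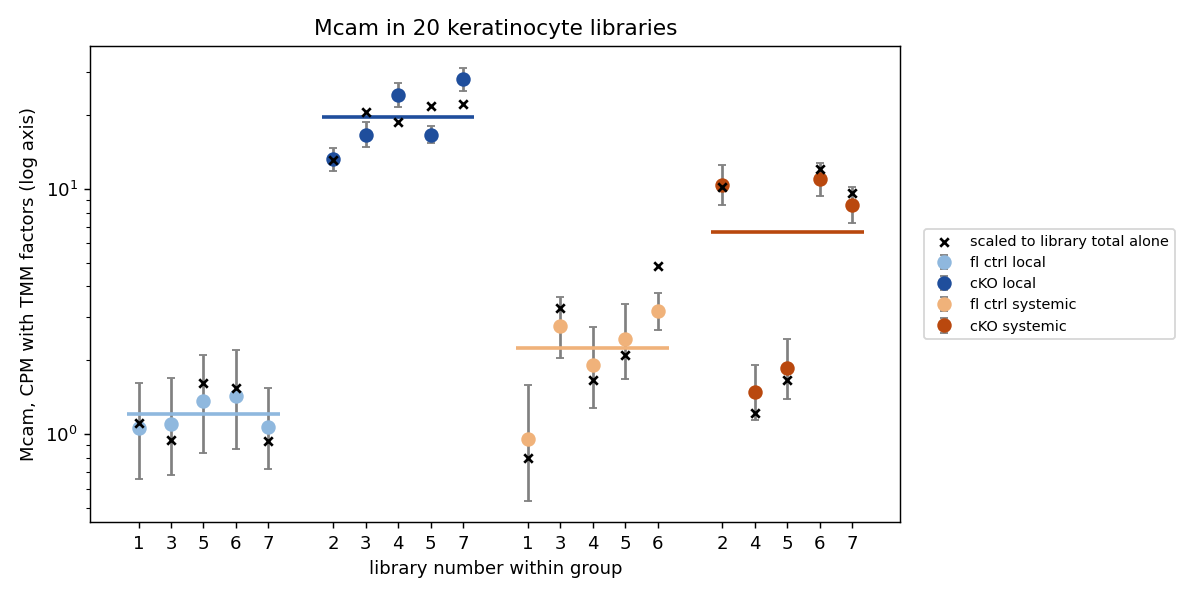
Mcam level (CPM with TMM factors, log axis) in each of 20 libraries by group, with 95% counting intervals as grey bars, group means as horizontal lines and crosses for the same counts scaled to the library total alone. The local cKO libraries sit at 13.24 to 27.97 CPM, and systemic cKO libraries 4 and 5 lie among the controls while 2, 6 and 7 lie at 8.63 to 10.94 CPM.

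Without the 3 libraries whose Esr1 and Gypc levels went against their labels, the systemic difference was 2.30 (SE 0.28), or 4.93-fold, and the local one stayed at 4.03 (SE 0.25). The remaining 3 systemic cKO libraries had 9.99 ± 1.21 CPM (SD, n = 3), all above the remaining 4 controls at 2.01 ± 0.78 CPM (SD, n = 4). The libraries left out were picked by genes that follow Mcam, so the larger value is not independent of the choice. Leaving out 1 library at a time gave 1.22 to 1.77 for the systemic difference, with the lowest value without systemic cKO 6 and the highest without systemic cKO 4. For the local difference the range was 3.88 to 4.16.

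The order of the groups was local control, systemic control, systemic cKO and local cKO. Neighbours in that order overlapped in range except for the last pair, in which the highest systemic cKO library (10.94 CPM) lay under the lowest local cKO library (13.24 CPM). Over all 12424 genes tested, 3.32% had systemic cKO below local cKO without overlap, and 0.845% had local cKO above local control without overlap. The log2 difference of systemic from local cKO was -1.60 (SE 0.42), and without the 3 libraries it was -0.97 (SE 0.25). That of systemic from local controls was 0.94 (SE 0.49), and 0.76 (SE 0.28) without them. With satellite-like transcripts over 50 CPM as a term in the fit, the difference between the controls was 0.04, and the systemic cKO difference from control was 2.18. All systemic controls were over 50 CPM and no local library was, so a difference between the controls could not be had within 1 side of that split.

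The Mcam genotype difference was smaller after injection than after topical treatment, at -2.54 on the log2 scale (SE 0.64, systemic minus local), and at -1.73 (SE 0.38) without the 3 libraries. With log2 satellite-like CPM or satellite-like transcripts over 50 CPM in the fit it was -1.87 (SE 0.76) or -1.86 (SE 0.90). This gap between routes thus kept its sign and was smaller in these fits.

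Within systemic cKO the log2 CPM of Mcam had an SD of 1.40, against 0.20 in local controls, 0.44 in local cKO and 0.66 in systemic controls (n = 5 each). A larger SD in systemic cKO was seen in 183 of the 12424 genes, or 1.47%, and in 9 of the 1693 genes whose mean lay within 0.5 log2 units of that of Mcam. This rank rested on libraries 4 and 5, without which the SD was 0.18 and 69.4% of genes had a larger one. The highest systemic cKO library was 7.34 times the lowest, and 1.27 times without libraries 4 and 5. By Y-linked genes libraries 4 and 6 were male and 2, 5 and 7 female. Satellite-like transcripts were at 37290 CPM in library 2 and at 1.10, 5.50, 1.53 and 2.08 CPM in libraries 4, 5, 6 and 7. The part of either in the spread was not tested. Scaled to the library total alone, systemic control 6 had 4.83 CPM, the highest of the controls, and the order within local cKO changed, whereas the groups kept the same order.

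Mcam is a marker of vessel cells, so endothelial and pericyte genes were measured beside it. The summed CPM of 10 endothelial markers was 2.89 to 11.6 in local controls and 3.60 to 20.2 in local cKO, which overlapped. Of these genes 9 were tested, with a median log2 difference of 0.58 in the local comparison, 6 of 9 above 0 and none called. In systemic controls the sum was 2.91 to 15.3 CPM and in systemic cKO 2.68 to 7.59 CPM. The median log2 difference of the 9 genes there was -0.485, with 1 of 9 above 0, opposite to Mcam. Without the 3 libraries that median was 0.307, with 6 of 9 above 0, and none was called in either fit. The defining markers Pecam1, Cdh5 and Tie1 stayed at or under 2.45, 1.51 and 2.20 CPM in every library, and the pericyte markers Pdgfrb and Rgs5 at or under 0.255 and 0.296 CPM with no read in 11 libraries each. Between cKO groups, 2 of the 9 endothelial markers were called, where 9.22% of all genes were, and both were lower after injection, as Mcam was. All 9 had a log2 difference below 0, with a median of -1.02, and of -0.68 without the 3 libraries. This was not particular to endothelial markers. All 7 tested fibroblast markers were also below 0, with 1 called (median -1.24, and -1.21 without the 3 libraries). Of 9 tested hair follicle markers 8 were below 0 (median -0.545). Medians of the other marker lists ran from -0.0589 to 0.789. In the local comparison the fibroblast median was 0.892, with 5 of 7 above 0 and none called. The 2 endothelial markers called were the receptor tyrosine kinase Tie1 (log2 difference -2.35, adjusted p = 0.00539) and the tight-junction gene Cldn5 (-1.66, adjusted p = 0.00742). Both were called without the 3 libraries too (-2.31 and -1.41), where 9.3% of all genes were. Between controls Tie1 was also called lower after injection (-1.51, adjusted p = 0.0478), where Mcam had the difference of 0.94. The 10 pericyte and smooth muscle markers summed to 26.2 to 54.9 CPM over all libraries, carried by Notch3, Acta2 and Cspg4. The 10 keratinocyte markers summed to 103000 to 135000 CPM over all libraries. In bulk samples, more cells with Mcam and more Mcam RNA per cell cannot be told apart, and the part of vessel cells was not tested beyond these values.

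Of the 12423 other genes, those whose log2 CPM most resembled that of Mcam over the 20 libraries were ranked by Pearson r. The libraries share group, depth and scaling, so r is a description, and these genes were chosen by it. Over all genes the median r was 0.003, and 16 genes reached 0.8. Ddit4l, which encodes an inhibitor of mTOR signalling, came first with r = 0.943 (Spearman rho 0.907), and r was 0.794 for deviations from the group means. It had 1.45 to 3.57 CPM in local cKO and at most 0.267 CPM in any control, and in systemic cKO 0.617, 0.098, 0.035, 0.696 and 0.625 CPM. Libraries 4 and 5 were thus again the low ones, although the counts of this gene were small.

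Esr1 followed with r = 0.911 and Gypc had r = 0.870. Both differed from Mcam in the library labelled systemic control 6, which was as high as cKO libraries for them. For Mcam that library was at 3.18 CPM, just above systemic control 3 at 2.75 CPM. They also differed in how systemic cKO stood to local cKO. In systemic cKO 2, 6 and 7 Mcam was below its whole local cKO range. Esr1 in these libraries was at 50.82 to 70.89 CPM, within its local cKO range. Gypc was at 19.2 CPM in library 2, within its local cKO range of 15.77 to 24.6 CPM, and just below that range at 15.68 and 13.5 CPM in libraries 6 and 7.

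**Figure D2:**
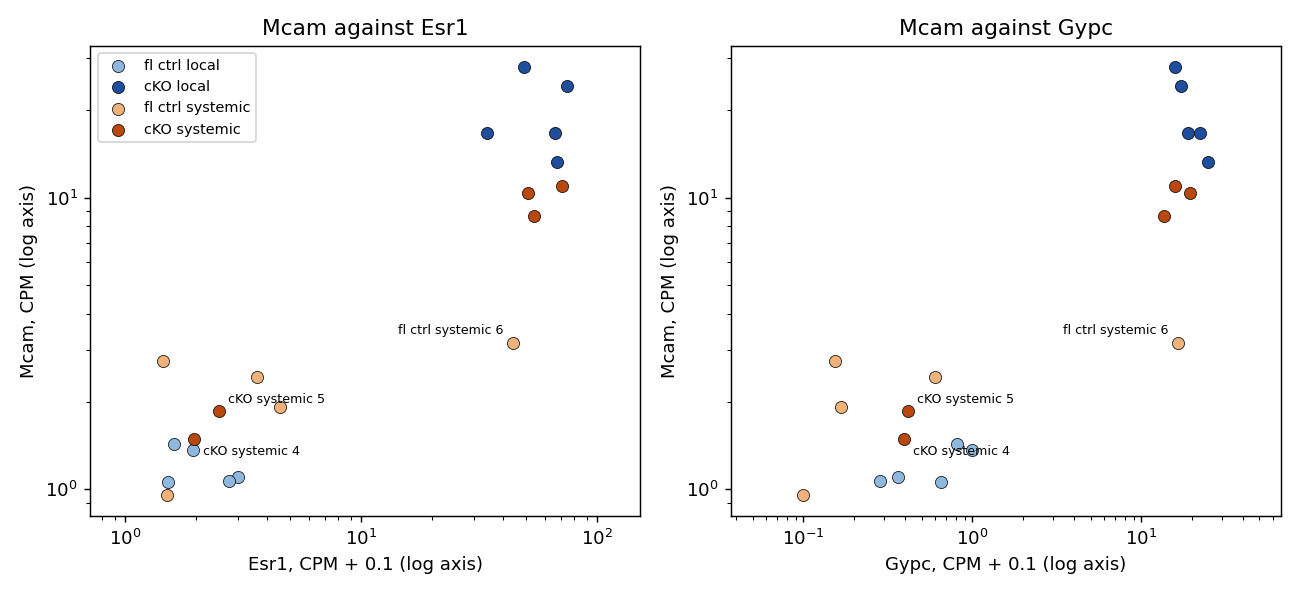
Mcam (CPM, log axis) against Esr1 and Gypc (CPM plus 0.1, log axes) in 20 libraries, 1 point each, coloured by labelled group. Systemic cKO 4 and 5 lie with the controls on both axes, and systemic control 6 has the Esr1 and Gypc levels of cKO libraries with 3.18 CPM of Mcam.

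The other genes of the first 10 were Mgmt, which repairs alkylated guanine in DNA, Polk, a translesion DNA polymerase, Plod2, a collagen lysyl hydroxylase, Abcb1b, an efflux transporter, Fbxw9, an F-box protein, Igsf9b, an adhesion molecule of the immunoglobulin superfamily, and Dglucy, a glutamate-cyclase enzyme. Their r ranged from 0.839 for Dglucy to 0.874 for Mgmt. Polk (8.93 ± 1.94 CPM in local cKO and 3.91 ± 0.53 CPM in local controls, SD, n = 5 each) and Plod2 also led the ranking by deviations from group means, at 0.852 and 0.868. For Mgmt and Fbxw9 that measure was 0.402 and 0.356, so their likeness to Mcam lay mainly between groups. Mgmt had 9.16 ± 1.60 CPM in local cKO against 2.98 ± 0.65, 3.45 ± 0.26 and 4.02 ± 0.94 CPM in local control, systemic control and systemic cKO (SD, n = 5 each). Fbxw9 had 32.1 ± 7.60 CPM against 14.04 ± 2.25, 13.7 ± 1.44 and 16.7 ± 1.45 CPM in the same order. Dcxr, a carbonyl reductase, at 22.26 to 30.61 CPM in local cKO and at most 16.3 CPM elsewhere, and Ptp4a3, a phosphatase, at 18.29 to 54.36 CPM in local cKO and at most 12.0 CPM elsewhere, were also highest in local cKO. None of these 4 genes had the wide split of Mcam within systemic cKO, where Fbxw9 ran from 15.03 to 18.94 CPM.

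Without the 2 libraries farthest from the median of Mcam, local cKO 7 and 4, r was 0.921 for Ddit4l, 0.911 for Esr1, 0.817 for Plod2 and 0.766 for Igsf9b. Within the 10 local libraries Plod2 had the r of 0.977, and within the 10 systemic libraries Ddit4l had 0.930 and Abcb1b 0.910. Without the 3 libraries r was 0.945 for Ddit4l and 0.940 for Esr1, and 8 of the 10 genes were still among the first 10. By Spearman rho 6 of them were, without the systemic cKO group 5, and in a ranking limited to genes averaging 5 CPM or more 4. Of the 10 only Esr1, Polk, Gypc and Fbxw9 average that much (26.8, 6.46, 8.34 and 19.1 CPM). The count of 4 was thus the most possible.

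Genes that ran opposite to Mcam did so more weakly, and 5 genes had r of -0.7 or less. S1pr2, a receptor for sphingosine 1-phosphate, had r = -0.726, Galnt1, which starts O-linked glycans, -0.717, and Tppp, a tubulin-binding protein, -0.708. Popdc3, a membrane protein of the Popeye family, had -0.702 and Mylk3, a myosin light chain kinase, -0.701. Tppp was at 16.08 to 19.43 CPM in local cKO and at 19.72 to 36.31 CPM in local controls. For S1pr2, r was -0.588 without local cKO 7 and 4.

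Besides Plod2 and Polk, the within-group ranking held Slmap, a membrane protein linked to Hippo signalling (0.846), the unclassified transcripts Gm43292 (0.822) and Gm42467 (0.802), the zinc-finger gene Zfp263 (0.821), Cramp1l (0.815), the mitochondrial tryptophanyl-tRNA synthetase Wars2 (0.810), Bloc1s2 of a lysosome-positioning complex (0.808) and Rprd1a, which binds RNA polymerase (0.802). Over all 20 libraries their r with Mcam was lower, from -0.0179 for Rprd1a to 0.662 for Gm43292. Slmap was at 14.6 ± 2.91 CPM in local cKO and 13.3 ± 2.83 CPM in local controls, and Gm43292 at 1.44 ± 0.37 and 0.76 ± 0.27 CPM (SD, n = 5 each). This ranking rested on the 3 libraries that went against their labels. Without them 2 of its 10 genes were still among the first 10, Plod2 at 0.786 and Slmap at 0.746, and the others had 0.404 for Rprd1a to 0.736 for Polk. The same measure fell to 0.567 for Ddit4l, 0.432 for Gypc and 0.117 for Esr1.

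**Figure D3:**
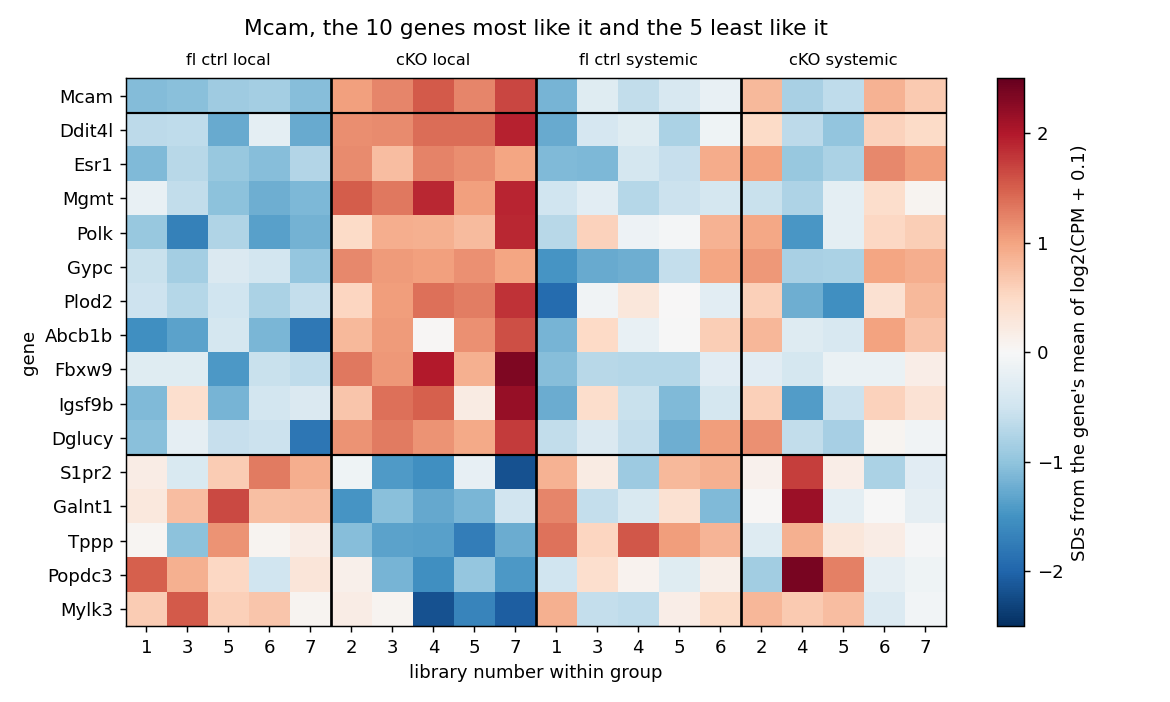
Mcam, the 10 genes of highest r and the 5 of lowest r (rows) in 20 libraries (columns, by group), coloured by the number of SDs from each gene's mean of log2(CPM + 0.1). Systemic cKO 4 and 5 are on the low side for Mcam, Ddit4l, Esr1, Gypc and Plod2, whereas Mgmt and Fbxw9 have their highest values in local cKO.

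The 10 nearest gene rows on each side of Mcam were read from the same fit, and 13 of these 20 genes were tested. None was called between cKO and control in the local comparison, where 0.129% of all genes were called by edgeR's quasi-likelihood test at an adjusted p under 0.05, nor in the systemic one, where 1.89% were. Their median log2 difference was 0.13 (range -0.32 to 0.30) in the local and -0.08 (range -0.56 to 0.38) in the systemic comparison, beside 0.02 and -0.00453 for all genes. Without the 3 libraries the systemic median was 0.01 over the 14 genes then tested, with none called, where 0.167% of all genes were. Cbl, a ubiquitin ligase gene that ends 0.25 kb from the end of Mcam on the other strand, had 20.2 ± 3.36 CPM in local controls and 23.2 ± 3.33 CPM in local cKO (SD, n = 5 each). Thy1 and Nectin1 also encode adhesion molecules of the immunoglobulin superfamily, and lie 85.89 and 327.01 kb upstream. Thy1 was at 4.56 ± 1.04 and 5.34 ± 1.12 CPM, and Nectin1 at 13.7 ± 5.45 and 15.6 ± 7.37 CPM, in local controls and local cKO (SD, n = 5 each), with overlap in both cases. Between routes in the controls, where 18.3% of all genes were called, the 2 genes called were Usp2, a deubiquitinase (log2 difference 1.14, adjusted p = 0.00968), and Cbl (0.51, adjusted p = 0.0299). Cbl lost its call without local control 1 or 7 or systemic control 3, 5 or 6, and both lost it with satellite-like transcripts in the fit. That term parts every systemic control from every local library, so it can hardly be told from route there. Without the 3 libraries, where 16.2% of all genes were called, Usp2 and Cbl were called (1.11 and 0.48). So was the unclassified transcript 5830462O15Rik (2.36, adjusted p = 0.0494).

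**Figure D4:**
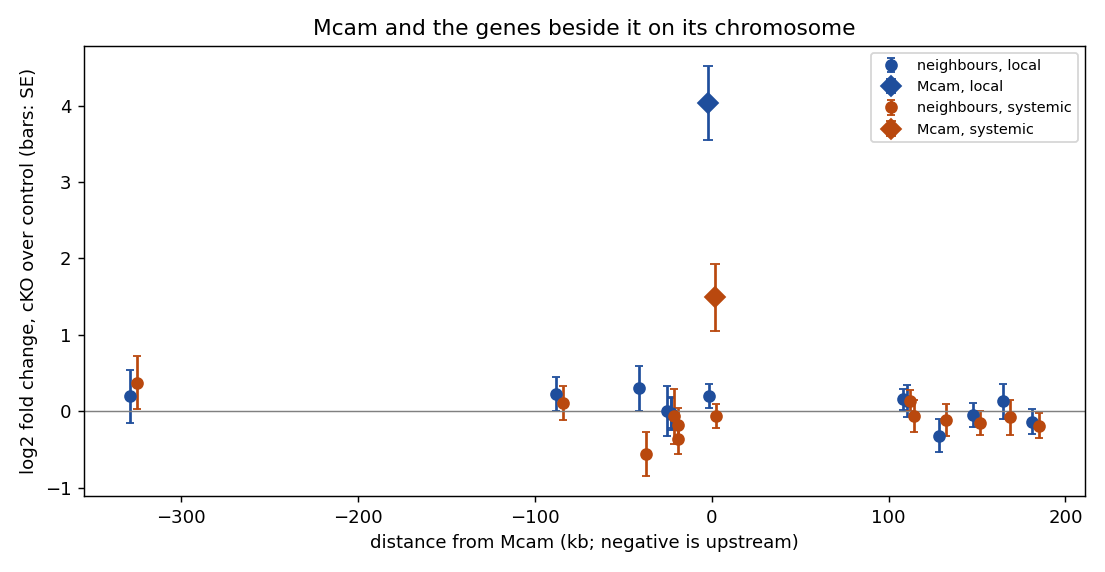
Log2 fold change of cKO over control (bars are SE) for the 13 tested genes beside Mcam and for Mcam itself, by distance from Mcam in kb, for the local and systemic routes. Mcam lies at 4.03 and 1.49, and the genes beside it between -0.56 and 0.38.

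Genes tied to MCAM by function or family were described from 5 lists with 80 members, of which 64 were tested. Between local cKO and control none of the 64 was called (8, or 12.5%, had an unadjusted p under 0.05, against 5.66% of all genes), where 0.129% of all genes were. In the systemic comparison 1 of 64, or 1.56%, was called, where 1.89% of all genes were, and without the 3 libraries it was 0 of 64, where 0.167% of all genes were. No listed gene was called for the difference of genotype effects between routes (13, or 20.3%, had an unadjusted p under 0.05, against 14% of all genes), where 0.25% of all genes were called. Both counts of 0 also held without the 3 libraries, where 0.191% of all genes were called in the local comparison. For the difference of genotype effects 0 of 12582 genes were then called, so that count says nothing particular about the listed genes.

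Of the ligands and co-receptors of MCAM, 10 of 16 were tested. Their median log2 difference in the local comparison was 0.45, with 9 of 10 above 0, beside 0.02 for all genes, and none was called. In the systemic comparison the median was 0.00473, and -0.35 without the 3 libraries. Lgals3, which encodes the glycan-binding galectin-3, was the most abundant at 2620 CPM per kb of exon, and Bsg, the immunoglobulin-family protein basigin, had 185 CPM per kb. Lama4, whose laminin MCAM binds, had 0.196 CPM per kb and local and systemic log2 differences of 0.16 (SE 0.33) and -0.74 (SE 0.33), the latter -0.435 (SE 0.395) without the 3 libraries. The co-receptor gene Pdgfrb and the ligand genes Wnt1, Vegfc and Fgf4 were at or near 0. S100a8, which encodes a calcium-binding alarmin, had 0.179 to 3.40 CPM in local cKO and 0 to 0.684 CPM in local controls, and was not called.

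Cytoplasmic partners, the ERM proteins and other actin regulators, had 11 of 12 members tested. Rhoa, a small GTPase of the actin cytoskeleton, was the 1 listed gene called between systemic cKO and control, and was higher in cKO. Its levels were 152.6, 541.6, 440.6, 315.5 and 263.0 CPM there and 96.2 to 150.2 CPM in systemic controls. Systemic cKO 2, the cKO library rich in satellite-like transcripts, was just above the highest control, and libraries 4 and 5 were the highest, opposite to Mcam. The log2 difference was 1.49 (SE 0.26, adjusted p = 0.00384 by edgeR's quasi-likelihood test). It was 0.92 (adjusted p = 0.171) without the 3 libraries, 1.48 (adjusted p = 0.0611) when the systemic libraries were fitted alone, and 0.32 (adjusted p = 1) with satellite-like transcripts over 50 CPM in the fit. Ezr, which encodes the membrane-actin linker ezrin, had 228 CPM per kb and a systemic log2 difference of -0.19 (SE 0.24), and -0.39 (SE 0.26) without the 3 libraries.

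Proteases that can shed MCAM from the cell, and their partners and inhibitors, had 10 of 12 members tested and none called by genotype. The sheddase genes Adam10 and Adam17 had 5.81 and 5.78 CPM per kb. Over reported regulators of Mcam 9 of 11 were tested, with medians of 0.07 and -0.13 in the local and systemic comparisons, the latter 0.06 without the 3 libraries, and none called by genotype. Among them were Creb1 (-0.13, SE 0.22, in the local comparison), Tfap2a, which encodes AP-2 alpha (0.31, SE 0.30), Sp1 (-0.12, SE 0.34) and the glucocorticoid receptor gene Nr3c1 (0.07, SE 0.17).

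In the immunoglobulin adhesion family 24 of 29 genes were tested and none was called between cKO and control. Per kb of exon Mcam was at 0.36 ± 0.05 CPM in local controls and 5.88 ± 1.82 CPM in local cKO (SD, n = 5 each). Icam1, a leukocyte-binding adhesion molecule, averaged 73.8 CPM per kb over all libraries, and Bcam, a laminin receptor close in structure to MCAM, 57.1. Alcam, another close relative, averaged 0.350 CPM per kb, near the level of Mcam in local controls. Bcam was at 129.0 to 293.1 CPM in local cKO and 124.2 to 290.5 CPM in local controls, almost the same range.

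**Figure D5:**
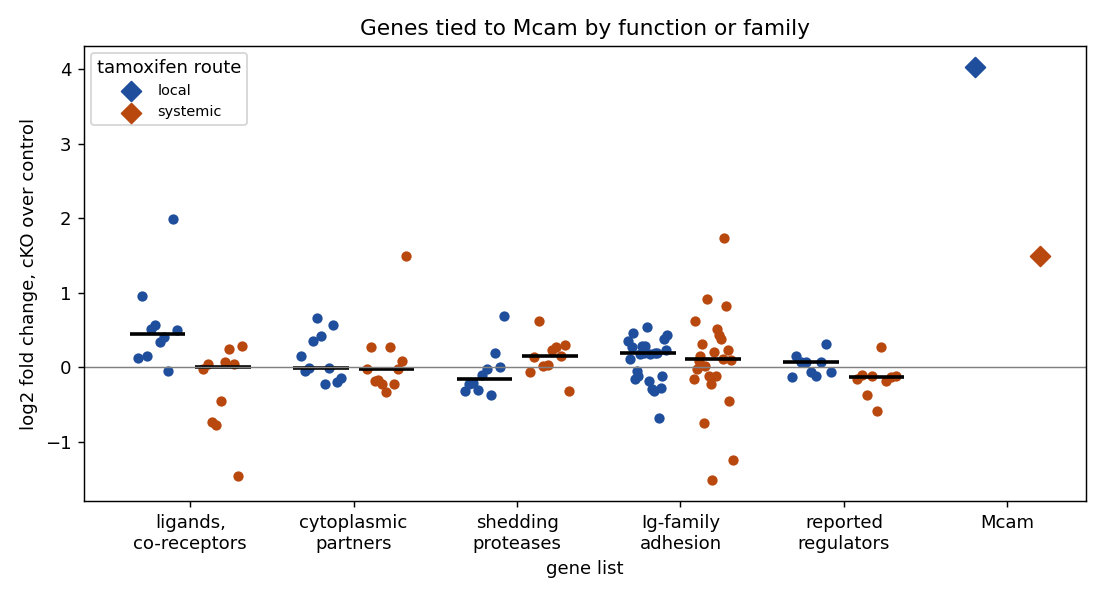
Log2 fold change of cKO over control for each tested gene of 5 lists (1 point per gene, black bars are list medians) and for Mcam (diamonds), for the local and systemic routes. No listed gene reaches the local value of 4.03 for Mcam, and the highest point among ligands in the local comparison is S100a8, which was not called.

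Between routes, more listed genes were called, as in the whole table. In controls 9 of 64 were called, or 14.1%, where 18.3% of all genes were. Those with the smallest adjusted p were Rhoa (log2 difference -1.78, adjusted p = 0.000171) and the laminin chain Lama5 (1.83, adjusted p = 0.00044). Lama5 was at 10.6 to 16.2 CPM in local controls and 32.1 to 70.1 CPM in systemic controls. The gamma-secretase subunit Aph1a (-1.14), the repressor Snai2 (0.84), the synaptic adhesion molecule Nptn (-0.56) and the nonmuscle myosin Myh9 (1.09) were called with adjusted p of 0.00181 to 0.0151, though Myh9 not without systemic control 3. Myh10, Mmp3 and Nectin2 lost their call when any of 7 or 8 of the 10 libraries was left out. Without the 3 libraries 8 were called, with Tfap2a in place of Myh10 and Mmp3, where 16.2% of all genes were called. With satellite-like transcripts in the fit none of the 64 was called. All systemic controls were over 50 CPM of these transcripts and no local library was. That term can hardly be told from route among the controls, so the lost calls say little about these genes.

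In cKO mice 8 of 64, or 12.5%, differed between routes, where 9.22% of all genes did. Nectin3, a partner of nectins at cell junctions, had 1.59, 0.880, 1.65, 3.79 and 4.13 CPM in systemic cKO and 0.157 to 0.523 CPM in local cKO. Unlike Mcam it was higher after injection (log2 difference 2.91, SE 0.52, adjusted p = 0.000958). The nectin gene Nectin4 (1.08, adjusted p = 0.00553), the adhesion gene Mpzl3 (1.04, adjusted p = 0.0012) and Adam17 (0.53, adjusted p = 0.00982) were also higher after injection. Msn, which encodes the membrane-actin linker moesin (-0.94, adjusted p = 0.000684), and the adhesion gene Cadm1 (-0.53, adjusted p = 0.00809, and 0.0517 when the cKO libraries were fitted alone) were lower, as Mcam was. These 6 remained called without the 3 libraries, where 9.3% of all genes were. Pak1 and Igsf8 did not, and lost their call in 7 and 9 of 10 fits without 1 library.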

How the data were processed

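RNA of 20 mice was measured, and per the labels' protocols SmartSeq II libraries were made from sorted keratinocytes. The authors deposited raw read counts per gene, and the submitters' processing notes name STAR, featureCounts, GRCm38 and mm10, with no versions or strand setting. From these counts all 20 libraries were fitted together in R 4.3.3 with edgeR 4.0.16 (TMM, filterByExpr with minimum count 10 and minimum total count 15, robust quasi-likelihood, 1 coefficient per group), which left 12424 genes. Tests were two-sided with Benjamini-Hochberg adjustment over these genes, and an adjusted p under 0.05 was a call. Correlations used log2 CPM with a prior count of 1. DESeq2 1.42.0, limma 3.58.1 with voom and quality weights, other filters, covariates (sex, satellite-like transcripts, percent mitochondrial counts), the replicate block and leaving out each library served as alternatives.

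Mcam, its lists and the rule for naming genes were chosen with earlier results of these data known. The rule named the 10 genes of highest and 5 of lowest r with Mcam, the 10 of highest within-group r, the genes beside it, and called or most abundant list members; listed genes at other levels were picked after their values were seen. Lengths came from GENCODE M21, in which 25665 of 25719 identifiers were found. On data simulated for the local comparison with 12424 genes, 65 of 100 genes changed by a log2 of 1 and 91 of 100 changed by 2 were recovered, with 9 false calls. The mice are separate animals, and the main fit did not pair them by the numbers in their names. Whether those numbers mark a shared batch or litter was not settled. Counts carry no molecular identifiers.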

Additional observations from a re-analysis of the deposited data

Results flagged for a closer look

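Mcam and the 10 genes of highest r with it were looked at in each group of 5 libraries, 44 gene groups in all. The search was for a library separated from the other 4 by a gap of more than 0.71 of the range of the group. Chance alone gives such a gap in about 1 in 20 groups, and it was seen in 6, none of them for Mcam itself. In systemic controls the library labelled systemic control 6 stood apart for Esr1 (43.7 CPM, next 4.41 CPM), Gypc (16.3 CPM, next 0.5 CPM) and Dglucy (1.21 CPM, next 0.269 CPM). In local cKO, library 7 stood apart for Ddit4l (3.57 CPM, next 1.94 CPM) and Polk (12.3 CPM, next 8.53 CPM), and it also had the highest Mcam level. In systemic cKO, library 2 stood apart for Dglucy (1.32 CPM, next 0.443 CPM). These genes were chosen for their likeness to Mcam over the same libraries, so their gaps are not independent of each other.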

How the results depend on the processing

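No Mcam difference changed sign under any alternative run. Over 12 other fits that left out no library of the comparison, the local difference stayed between 3.92 and 4.08 and the systemic one between 1.08 and 2.18 (log2). The route difference in controls moved from 0.94 to 0.20 with log2 satellite-like CPM in the fit and to 0.0361 with satellite-like transcripts over 50 CPM. Leaving out 1 library gave 0.76 to 1.12 for controls, -1.88 to -1.32 for cKO between routes and -2.82 to -2.27 for the difference of genotype effects. With the same satellite-like terms the difference of genotype effects moved from -2.54 to -1.87 and -1.86. The number of listed genes called between systemic cKO and control, 1 in the edgeR fit, was 4 with DESeq2, 2 with voom, 2 without a filter, 9 with percent mitochondrial counts as a covariate, and 0 with only the libraries compared, with log2 satellite-like CPM, with satellite-like transcripts over 50 CPM or without the 3 libraries. Without 1 library it was 1 to 6, with 6 without systemic cKO 2 and 2 without systemic control 1 or systemic cKO 4. Between routes in cKO the count of 8 became 14 with DESeq2 and 13 with percent mitochondrial counts, and was 6 to 9 without 1 library. Between routes in controls the count of 9 became 0 with either satellite-like term and was 6 to 8 without 1 library. These terms part every systemic control from every local library, so they can hardly be told from route there. In the local comparison the count of listed genes called was 0 to 0, as were the neighbours called by genotype on either route. Beside the main fit, shares of all genes called are given only without the 3 libraries. In the other fits a change in these counts thus cannot be told from a change over the whole table. Of the 10 genes most like Mcam, 8 to 10 were retained without 1 library, 6 by Spearman rho, 5 without systemic cKO and 4 in a ranking limited to genes averaging 5 CPM or more. The last count was the most possible, as only these 4 of the 10 average 5 CPM or more. The cause of the other changes was not tested. The replicate number served as a block, although whether it pairs the mice is not known. Deviations of same-numbered libraries in different groups correlated at -0.299 to 0.497, and 9 of 20 pairs were over 0.1. Their median was 0.0597, against -0.0195 for other pairs across groups. With the block the Mcam differences were 4.08 (local), 1.08 (systemic), 1.01 (controls between routes), -1.99 (cKO between routes) and -3.00 (difference of genotype effects), and the listed genes called were 0, 1, 9 and 7 in the first 4 of these. Depth limits Mcam most in the controls, with 15 to 131 counts a library.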
